A study of Mus musculus with 56 samples.

Results

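The complement and coagulation proteins of blood plasma were followed through the genes that encode them in mouse liver, where hepatocytes make most of them. The 40 genes were given by name, under a rule with no threshold on measured values, and all 40 were found among the 25415 genes listed, of which 24822 were tested. RNA was sequenced from whole liver. All mice were C57BL/6J females, 9 weeks old at sampling and kept under 12 h of light and 12 h of dark. For 7 days the animals had food by day only (daytime-restricted feeding, DRF) or by night only (nighttime-restricted feeding, NRF), and NRF was the reference. Times are zeitgeber times (ZT), in hours from lights-on, and sampling at ZT0, 4, 8, 12, 16, 20 and 24 used 4 mice for each regimen and time, which made 14 groups and 56 libraries. All animals were of 1 inbred strain and 1 sex, the labels name no transgene, and no group was fed without restriction.

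Complement is a cascade of plasma proteases that is started by antibody (C1), by sugars on microbes (lectins) or by slow turnover of C3, converges on the cleavage of C3 and ends in a pore built from C5 to C9. Coagulation is a second cascade of serine proteases, in which factors that need vitamin K lead to thrombin, thrombin turns fibrinogen into fibrin, and plasmin dissolves the clot. Both cascades are held in check by circulating inhibitors, many of them serpins, and several of these proteins, fibrinogen among them, are known acute-phase proteins whose synthesis in hepatocytes rises in inflammation.

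Values are scaled counts, which were rebuilt as counts out of the deposited table, on the authors' own scale for each library. They compare libraries and not genes, so levels of different genes are given per kb of exon. The 40 genes together made up between 3.028% and 3.847% of all scaled counts in the DRF libraries and between 3.154% and 4.127% in the NRF libraries. Per kb, levels ran from 4.52 scaled counts for C6 to 1763 for C3, with a median of 145.0. The 8 hepatocyte markers ran from 195 to 38120 scaled counts per kb. Among them Alb, which encodes albumin, had a mean of 89268 scaled counts. This mean and the marker sums that follow are not divided by exon length. Markers of platelets (4 of 5 tested), neutrophils (4 of 5) and lymphocytes (5 of 5) summed to at most 2.19, 1.86 and 3.86 scaled counts in any library. Genes at 0 in every library were left out before testing, so each marker tested had a value above 0 somewhere. The mean correlation of a library with its replicates across 6689 genes ran from 0.9471 to 0.9824, and the lowest 2 were replicate 3 of NRF at ZT16 (0.9471) and replicate 3 of NRF at ZT12 (0.9556). A per-library index of how far long genes exceed short ones (Spearman correlation with exon length) ran from -0.3211 to 0.3029, and at ZT24 it was above 0 in all 8 libraries whereas at ZT0 it was below 0 in 7 of 8.

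The first question was how many of these genes kept a 24-h rhythm under each feeding time. A cosine of 24 h was fitted to log2(scaled count + 1) in each regimen with limma, and p-values were adjusted by Benjamini-Hochberg over all genes tested, with a threshold of 0.05. Of the 40 genes, 25 (62.5%) were rhythmic under DRF, against 35.5% of all genes, and 27 (67.5%) under NRF, against 44.1%. In both regimens 17 (42.5%) were rhythmic, the dual-oscillating genes, against 23.7% of all genes. Whole liver was measured, so fewer cells of a type and less RNA per cell cannot be told apart in any of these values. The 8 rhythmic under DRF alone were C4b, Mbl2, C3, Hc, C6, C8g, Serpinc1 and Serpind1, and the 10 under NRF alone were C1ra, C2, F2, F7, Proc, Pros1, F5, F11, F12 and Kng1. Masp2, C8a, C8b, Vtn and F10 passed in neither. Passing in 1 regimen alone is no difference between regimens, so the difference of the fitted rhythms was tested directly. It passed in 23 members (57.5%), against 39.1% of all genes, and among these were 13 of the 17 dual-oscillating members, 5 of the 8 rhythmic under DRF alone, 4 of the 10 rhythmic under NRF alone, and Masp2.

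**Figure D1:**
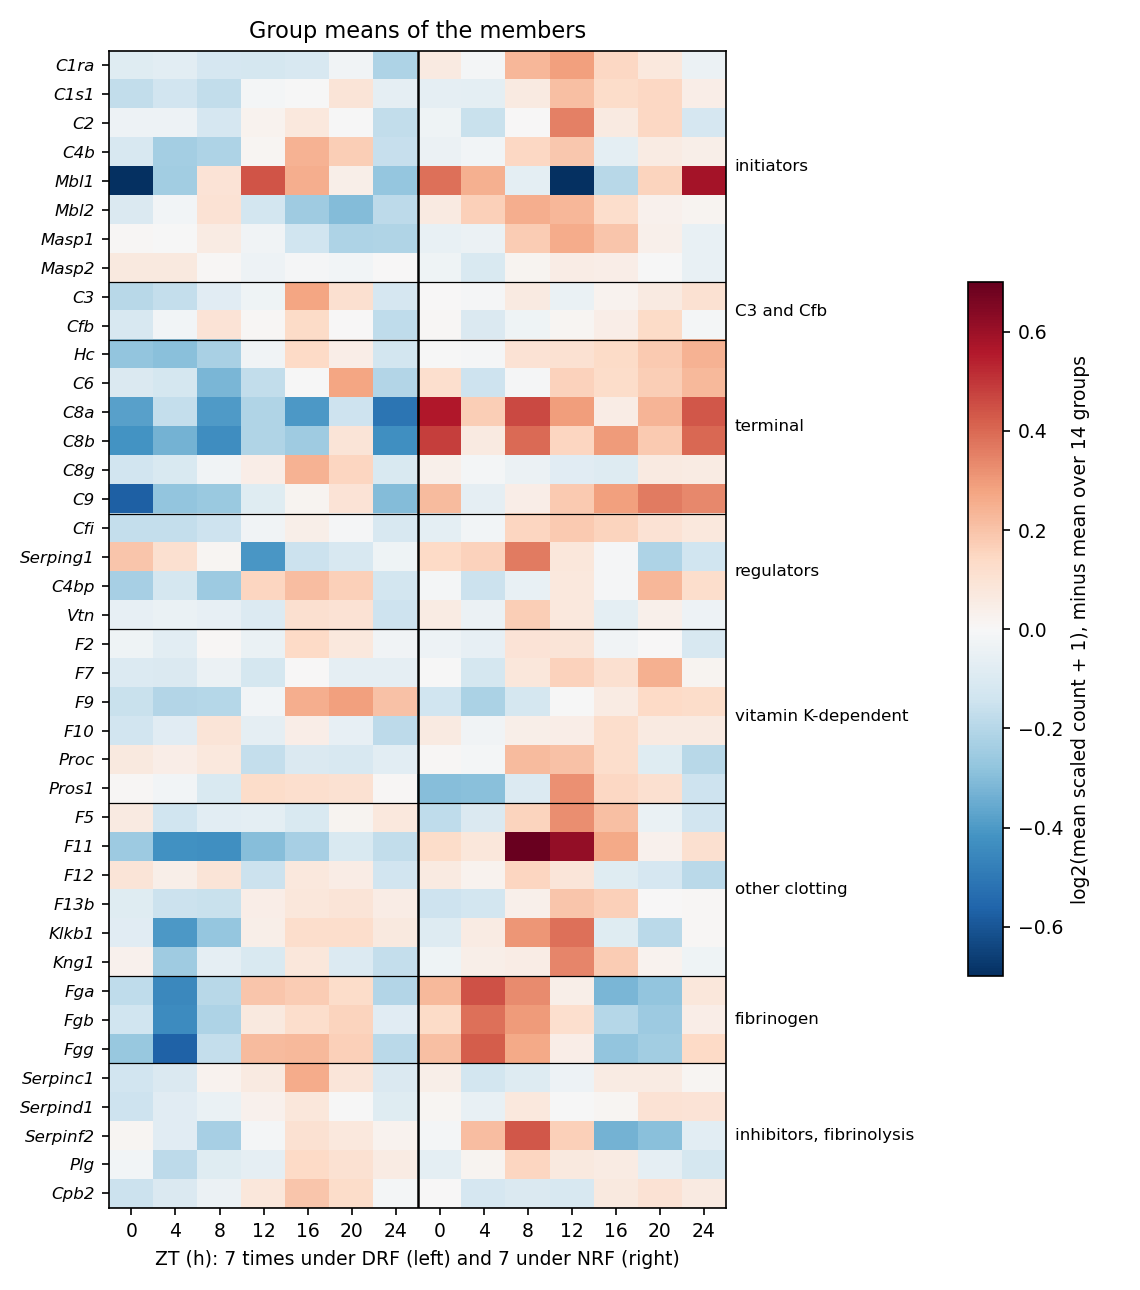
Each row is 1 of the 40 genes and each column 1 of 14 groups (7 times under DRF left, 7 under NRF right). Colour gives log2 of the group mean of scaled counts plus 1, minus the mean over the 14 groups, and saturates at 0.7. The fibrinogen genes are blue at ZT4 under DRF and red at ZT4 under NRF, and C8a and F11 are blue at all 7 DRF times.

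Peak hours under DRF lay close together. Of the 25 members rhythmic under DRF, 18 (72%) peaked between ZT12 and ZT18, early in the dark phase, where 24.1% of all 8821 genes rhythmic under DRF peaked, and 4 more peaked between ZT18 and ZT24. Only Serping1, Mbl2 and Masp1 peaked in the light phase under DRF. Under NRF the 27 rhythmic members were spread more widely, with 4 peaks between ZT0 and ZT6, 9 between ZT6 and ZT12, 10 between ZT12 and ZT18 and 4 between ZT18 and ZT24. The shares of all 10946 genes rhythmic under NRF in these 6-h windows were 22.9%, 33.2%, 18.3% and 25.5%. No test was made of these shares. The length index had a time course of its own in these libraries. Under DRF it was below 0 in all 8 libraries of ZT4 and ZT8 and above 0 in all 12 of ZT12, ZT20 and ZT24. With the trend on exon length taken out of each library, 28 members were rhythmic under DRF and 30 under NRF. Their peak hours in that fit are not given, so its bearing on the share of peaks between ZT12 and ZT18 was not tested.

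The shift between the peaks of the 17 dual-oscillating members had a median of 5.12 h, against 8.11 h over the 5875 dual-oscillating genes. It was at least 8 h, which the study calls phase-inverted, in 7 members (Mbl1, Klkb1, Fga, Fgb, Fgg, Serpinf2 and Plg), a class that held 50.8% of all dual-oscillating genes. It was at most 4 h, or phase-locked, in 7 members (C1s1, C9, Cfi, C4bp, F9, F13b and Cpb2), a class with 24.6% of them, and between these limits in Masp1, Cfb and Serping1, where 24.7% of all dual-oscillating genes lay. Just inside the upper limit was Plg at 8.39 h ± 1.66 (SE), and the next member below that limit was Masp1, well short of it at 5.23 h ± 1.06. Just inside the lower limit was Cpb2 at 3.90 h ± 1.05, with Serping1 just outside at 4.83 h ± 1.48. The clock genes Arntl, Nr1d1, Nr1d2, Dbp, Per2, Tef, Hlf and Nfil3, given for reference, were phase-inverted in 8 of 8 cases, with a median shift of 10.9 h. Leaving out 1 library, NRF ZT4 replicate 4, raised the members' median shift to 8.70 h and lowered the phase-locked count to 3, and leaving out NRF ZT4 replicate 1 left 4 phase-locked, with a median phase shift of members rhythmic in both regimens of 6.32 h. The values as the authors deposited them are already log-transformed and share a factor per library. They entered the same fit as log2(deposited value + 1), so a second log was taken. In that fit of the values as deposited, 26 members were dual-oscillating, 24 of them phase-locked and 1 phase-inverted. The rhythm difference then passed in 10 members, Mbl1, C8g, Proc, F5, F11, Klkb1, Fga, Fgb, Fgg and Serpinf2, and was lost in the other 13. Shares over all genes were computed for the main fit alone, so counts from the deposited values cannot be set against them.

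**Figure D2:**
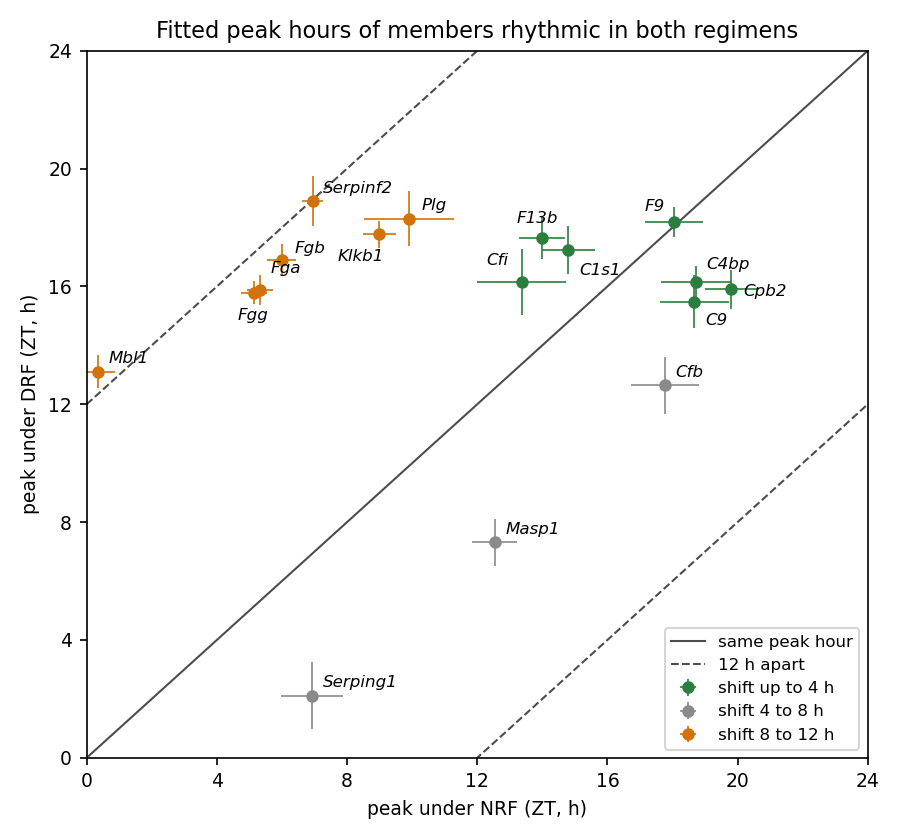
Fitted peak hour under NRF (x axis, ZT in h) against DRF (y axis, ZT in h) for the 17 dual-oscillating members, with bars of 1 SE. The solid line marks equal peak hours and the dashed lines peaks 12 h apart: Mbl1, Serpinf2 and the 3 fibrinogen genes lie near a dashed line and F9 on the solid one.

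A mirror-image rhythm would make the DRF and NRF cosines cancel, and a test of whether their sum differs from 0 asks for anything other than full inversion. It passed in 26 members (65.0%), against 34.9% of all genes. Its smallest p belonged to F9, and it did not pass in Fga, Fgb, Fgg or Mbl1. As deposited, it passed in these 4 as well (limma adjusted p = 0.0220, 0.00747, 0.00397 and 0.0382).

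Among the initiators of complement, Mbl1, a mannose-binding lectin that recognises microbial sugars, had the largest amplitude of the 40 genes in both regimens. Mbl1 (ENSMUSG00000037780, chromosome 14, 41151458 to 41159601, + strand, GRCm38) had 32.3, 38.1, 45.3 and 54.6 scaled counts at ZT0 and 84.5, 93.7, 99.9 and 105 at ZT12 under DRF. Under NRF the order was turned, with 99.3, 99.4, 106 and 118 at ZT24 and 36.6, 38.5, 40.3 and 53.6 at ZT12. All 4 DRF libraries lay above all 4 NRF libraries at ZT12, and below them at ZT0. The fitted peak was at 13.1 h ± 0.571 (SE) with DRF and at 0.361 h ± 0.502 with NRF, 11.2 h ± 0.760 away, with peak-to-trough folds of 1.87 and 2.05 (limma adjusted p of the rhythm difference, 6.55e-13). The second mannose-binding lectin, Mbl2, had no such pattern. It was rhythmic under DRF with a peak at 6.57 h ± 1.01 (limma adjusted p = 0.0216), its rhythm difference did not pass (limma adjusted p = 0.481), and its mean over the day was lower under DRF (log2 difference -0.25 ± 0.05, SE). As deposited, neither the rhythm nor the mean of Mbl2 passed (limma adjusted p = 0.990 and 0.102), and with the length trend removed its rhythm did not (0.226).

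C4b, complement component 4, is cleaved by the C1 and lectin proteases and forms part of the C3 convertase. Under DRF it (ENSMUSG00000073418, chromosome 17, 34728380 to 34743882, - strand) had 528, 556, 559 and 572 scaled counts at ZT4 and 678, 704, 782 and 932 at ZT16, groups that did not overlap. Under NRF its highest group, ZT12, had 636, 731, 799.6 and 814 and its lowest, ZT16, had 535, 564, 685 and 705, and these overlapped. It was rhythmic under DRF, with a peak at 16.9 h ± 0.474 and an amplitude of 0.26 ± 0.04 (log2, SE), and the rhythms differed (limma adjusted p = 2.45e-05). Under NRF its amplitude was 0.08 ± 0.03 (limma adjusted p = 0.148). The difference of C4b did not pass with the values as deposited (limma adjusted p = 0.127). Its near-identical neighbour C4a can share reads with it, so the split between both genes is uncertain.

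C1ra and C1s1, the proteases of the C1 complex, and Masp1, a protease bound to the lectins, each had a lower mean over the day under DRF. C1ra (ENSMUSG00000055172, chromosome 6, 124512405 to 124523443, + strand) was flat under DRF, with an amplitude of 0.01 ± 0.04 (limma adjusted p = 0.974). Under NRF it was rhythmic, with an amplitude of 0.13 ± 0.04 (limma adjusted p = 0.00651). Its libraries held 134, 138, 140.0 and 155 scaled counts in the highest DRF group (ZT20) and 119.8, 123, 124 and 129.9 in the lowest (ZT24), against 165, 172, 178 and 189 and 116, 136, 150.3 and 157 in the highest (ZT12) and lowest (ZT24) NRF groups. The log2 difference of the rhythm-adjusted mean was -0.23 ± 0.04 for C1ra, -0.16 ± 0.03 for Masp1 and -0.14 ± 0.03 for C1s1 (limma adjusted p of 3.00e-05, 4.04e-05 and 1.37e-04). Masp1 had its DRF peak at 7.31 h ± 0.801 and its NRF peak at 12.5 h ± 0.696, and the rhythms differed (limma adjusted p = 5.86e-04). As deposited, the means of C1s1 and Masp1 did not pass (limma adjusted p = 0.480 and 0.276), nor did the rhythm difference of Masp1 (0.112) or its DRF rhythm (0.717). C2, the other part of the classical convertase, was rhythmic under NRF only and had no difference in rhythm or mean that passed. Masp2 had a rhythm difference at a limma adjusted p of 0.0271 with amplitudes of 0.04 ± 0.02 and 0.06 ± 0.02 (log2), and that difference did not pass without ZT0 (0.0743) or as deposited (0.341). Of its exon bases, 54.9% lie opposite exons of Tardbp on the other strand, and whether strand was used in counting is not given in the sources used here. C1ra and C1s1 have close paralogues (C1rb and C1s2) that can share reads with them.

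C3, on which all complement routes converge, was the most abundant of the 40 genes per kb. It was rhythmic under DRF with a peak at 16.1 h ± 0.770 and a peak-to-trough fold of 1.33 (limma adjusted p = 8.18e-04), and its NRF amplitude was 0.03 ± 0.04 (limma adjusted p = 0.801). C3 had 7580.0, 7745, 7876 and 9040.0 scaled counts at ZT4 and 9862, 11080.1, 11264 and 11538 at ZT16 under DRF, against 7693, 8884, 9123 and 10191 and 7263, 8419, 9307 and 11726 under NRF. At these times the DRF groups of C3 stood apart from each other and the NRF groups overlapped. The group mean of C3 was lowest at ZT0 (7899) under DRF. Under NRF it was lowest at ZT12 (8737) and highest at ZT24 (9712), so ZT4 and ZT16 were not its NRF extremes. The difference of the rhythms passed for C3 (limma adjusted p = 0.0118). As deposited it did not (0.602), and C3 was then rhythmic under NRF too (limma adjusted p = 0.0225). Cfb, the protease of the alternative convertase, was rhythmic in both regimens with peaks at 12.6 h ± 0.957 and 17.8 h ± 1.05. The rhythm difference of Cfb had a limma adjusted p of 0.0138 and did not pass without ZT0, without ZT24 or as deposited (0.0676, 0.0597 and 0.472). Exons of the joint transcript model Gm20547 cover 79.5% of the exon bases of Cfb and 42.8% of those of C2 on the same strand. C3 was too deep for its counts to be checked for wholeness and was rebuilt with the annotated length.

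The components of the membrane attack complex, which inserts into membranes, were the role group with the lowest median difference in mean between DRF and NRF (-0.28, log2). Of 6 genes, 4 (C8a, C8b, C9 and Hc) had a lower rhythm-adjusted mean under DRF and none a higher one. Over all 40 genes, 15 (37.5%) were lower under DRF, where 2.76% of all genes were lower, and none was higher by limma, at the adjusted or at an unadjusted p under 0.05, where 4.23% of all genes were higher. The mean differed in either direction in 6.99% of all genes. The fitted difference was below 0 in 31 of the 40 members, with a median of -0.095 (log2), beside -0.0018 over all genes. With the values as deposited 5 members (C1ra, C8a, C8b, C9 and F11) were lower and none was higher, and the other alternatives gave between 12 and 21 lower and none higher.

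C8a and C8b, subunits of complement component 8, were, with F11, the members with the largest fitted difference in mean. C8a (ENSMUSG00000035031, chromosome 4, 104815679 to 104876398, - strand) was flat in both regimens, with amplitudes of 0.03 ± 0.09 and 0.12 ± 0.09. It had 459, 475, 567 and 569.6 scaled counts in its highest DRF group (ZT20) and 365, 391, 402 and 446 in its lowest (ZT24). Under NRF it had 599.8, 614, 797 and 1359.6 at ZT0 and 531, 535, 611 and 693 at ZT16, its highest and lowest groups. Replicate 1 of NRF at ZT0 lay far above the others of its group, and the spread between NRF animals was wide. Its rhythm-adjusted mean was lower under DRF, with a log2 difference of -0.59 ± 0.09 (limma adjusted p = 4.72e-06), or 0.664 of the NRF level, and leaving out each library in turn gave -0.61 to -0.55. C8b, which lies 11.1 kb from C8a on chromosome 4 and faces the other way, was lower (log2 difference -0.51 ± 0.09, limma adjusted p = 5.43e-05). The gene of the remaining subunit, C8g, was not lower (0.05 ± 0.03, limma adjusted p = 0.467). C8g was rhythmic under DRF with a peak at 15.7 h ± 0.715 and a rhythm difference (limma adjusted p = 3.78e-04).

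C9, which polymerises into the pore, was lower under DRF (log2 difference -0.36 ± 0.06, limma adjusted p = 1.32e-05). Its libraries (ENSMUSG00000022149, chromosome 15, 6445327 to 6498751, + strand) held 324, 358, 413 and 443 scaled counts at ZT0 and 555, 566, 612 and 708 at ZT20 under DRF. Under NRF they held 399, 536, 614 and 638 at ZT4 and 621, 698, 779.7 and 849.5 at ZT20. Both regimens were highest at ZT20, and the fitted peaks, 15.5 h ± 0.902 and 18.7 h ± 1.05, were 3.19 h ± 1.39 apart, with no rhythm difference that passed (limma adjusted p = 0.140). Hc, the gene of complement C5 (ENSMUSG00000026874, chromosome 2, 34983331 to 35061438, - strand), had 937, 964, 973 and 991 at ZT4 and 1184, 1217, 1338 and 1480.2 at ZT16 under DRF, and 1045, 1162, 1235 and 1256 and 1293, 1401, 1427 and 1469 at ZT4 and ZT24 under NRF. At ZT4 all DRF libraries of Hc lay below all NRF libraries. Its mean was lower (log2 difference -0.20 ± 0.03, limma adjusted p = 1.62e-05), and its rhythm had an amplitude of 0.22 ± 0.03 under DRF and 0.07 ± 0.03 under NRF (limma adjusted p of the difference, 0.0153). With the values as deposited, neither difference of Hc passed (limma adjusted p = 0.422 for the mean and 0.694 for the rhythm). C6 had the lowest level of the 40 genes and no difference that passed.

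**Figure D3:**
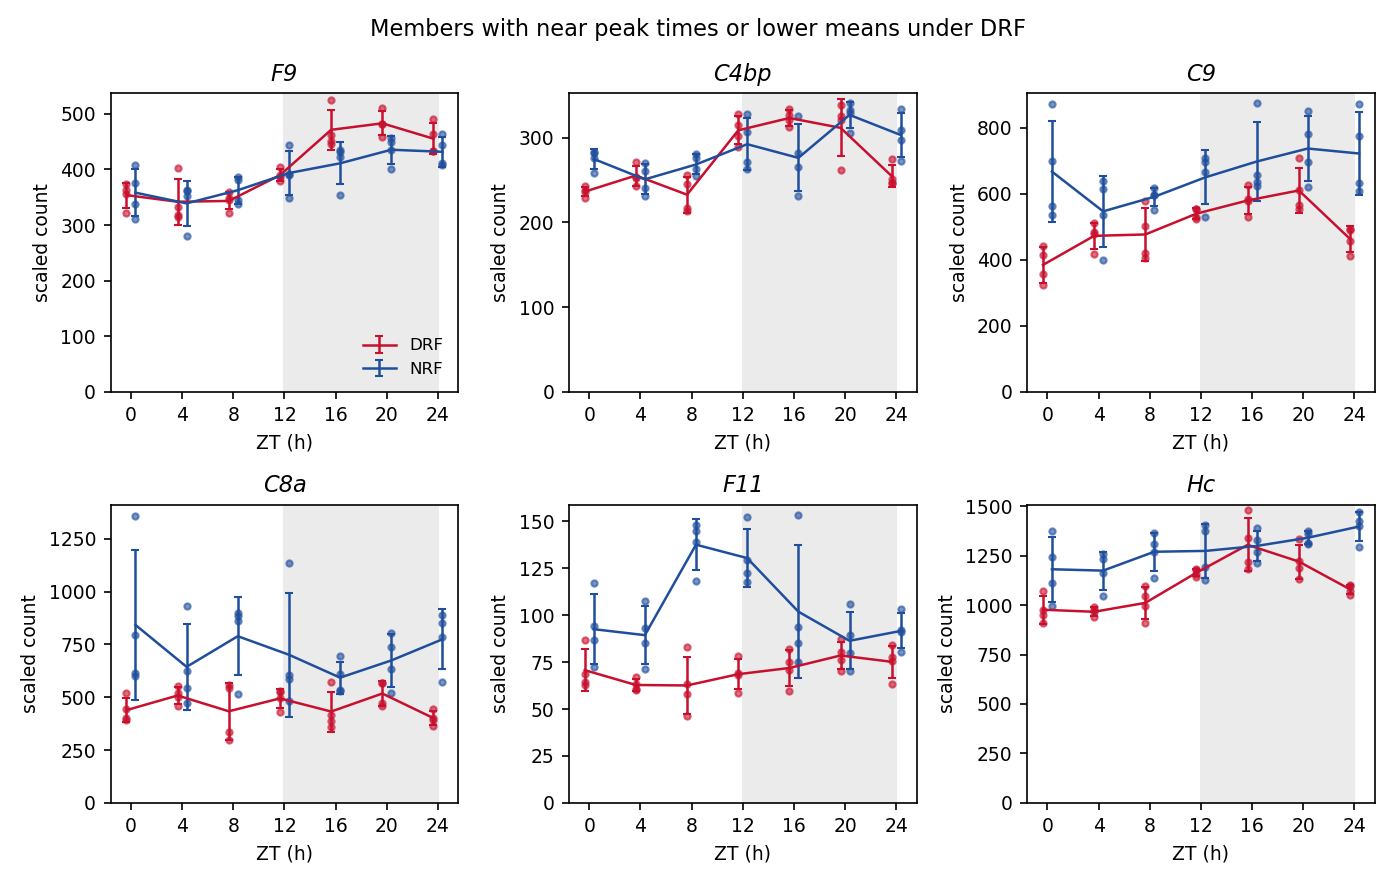
Scaled counts (y axis, from 0) against ZT in h for 6 members. Points are single livers, lines join group means and bars are 1 SD (n = 4), with the dark phase in grey. F9, C4bp and C9 are high in the dark phase in both regimens, and the DRF means of C8a, F11 and C9 lie below the NRF means at every time shown.

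Among the complement regulators, C4bp, which binds C4b and helps to degrade it, and Cfi, the protease that cleaves C3b and C4b, peaked at near hours in both regimens. C4bp had its DRF peak at 16.2 h ± 0.538 and its NRF peak at 18.7 h ± 1.06, with amplitudes of 0.25 ± 0.04 and 0.12 ± 0.04 (log2, limma adjusted p of the difference, 0.0164). That difference did not pass without ZT0 (0.0631), without ZT24 (0.0824) or as deposited (0.499). Cfi was lower under DRF (log2 difference -0.17 ± 0.03, limma adjusted p = 7.55e-04), and its peaks were 2.79 h ± 1.79 apart. The mean of Cfi did not pass as deposited (limma adjusted p = 0.599), and without ZT0 it was rhythmic in neither regimen (0.0760 under DRF and 0.206 under NRF). Serping1, the C1 inhibitor, which also restrains the contact factors, peaked in the light phase in both regimens, at 2.11 h ± 1.13 and 6.93 h ± 0.949 (limma adjusted p of the difference, 0.0280). That difference did not pass without ZT0 (0.0537), without ZT24 (0.0672), as deposited (0.0527) or in 3 of the 56 fits that left out 1 library. The DRF rhythm of Serping1 was lost without ZT0 (limma adjusted p = 0.0826) and its NRF rhythm as deposited (0.794). Vtn, vitronectin, which blocks the pore, passed no test of rhythm, rhythm difference or mean.

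Of the 6 vitamin K-dependent genes, 5 were rhythmic under NRF (44.1% of all genes) and 1 (F9) under DRF (35.5%). The rhythm difference passed in 2 of the 6, Proc and Pros1 (39.1% of all genes). F9, factor IX, which joins factor VIII to activate factor X, peaked at nearly the same hour in both regimens. F9 (ENSMUSG00000031138, chromosome X, 59999464 to 60030759, + strand) had 314, 318, 333 and 402 scaled counts at ZT4 and 458, 481, 482 and 511 at ZT20 under DRF, and 279, 352, 361 and 364 and 399.9, 435, 450.2 and 457 at the same times under NRF. In both regimens the ZT20 libraries stood above the ZT4 libraries, without overlap. The fitted peaks were 18.2 h ± 0.505 and 18.1 h ± 0.889, 0.141 h ± 1.02 apart, and the rhythm difference did not pass (limma adjusted p = 0.240) while the sum of both rhythms differed from 0 (limma adjusted p = 5.50e-07). F9 also differed between ZT24 and ZT0, the same hour of the day, by a log2 difference of 0.36 under DRF and 0.27 under NRF (limma adjusted p = 0.00999 and 0.0303). The rhythm calls of F9 held without ZT0 and without ZT24.

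Proc, protein C, an anticoagulant protease, had the smallest p of the rhythm difference in this group, with amplitudes of 0.11 ± 0.04 under DRF and 0.17 ± 0.03 under NRF (limma adjusted p = 9.30e-04). Its cofactor Pros1, protein S, had amplitudes of 0.11 ± 0.04 and 0.29 ± 0.04 and differed in rhythm as well (limma adjusted p = 0.00315, and 0.0871 as deposited). F7, factor VII, which starts clotting with tissue factor, was lower under DRF (log2 difference -0.14 ± 0.03, limma adjusted p = 0.00178), while its neighbour F10, the gene of factor X, 1498 bp away on chromosome 8, did not pass (-0.09 ± 0.04, limma adjusted p = 0.144). As deposited F7 did not pass either. F2, prothrombin, had amplitudes of 0.08 ± 0.03 under DRF and 0.08 ± 0.03 under NRF (limma adjusted p = 0.0512 and 0.0418). It lost its NRF call in 12 of the 56 fits that left out 1 library.

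In the contact and clotting group all 6 genes were rhythmic under NRF (44.1% of all genes), and only Klkb1 and F13b were under DRF (35.5%). The rhythm difference passed in 4 of the 6 (39.1% of all genes). The NRF rhythm of Kng1 (limma adjusted p = 0.0476) did not pass without ZT0 (0.0760), without ZT24 (0.0967) or in 35 of the 56 fits that left out 1 library, and as deposited those of F12 (0.0901) and Klkb1 (0.0852) did not pass. F11, factor XI, had the smallest p of a lower mean under DRF among the 40 genes. F11 (ENSMUSG00000031645, chromosome 8, 45241174 to 45262031, - strand) had 46.2, 57.9, 63.4 and 82.8 scaled counts at ZT8 under DRF and 118, 139, 145 and 148 at ZT8 under NRF, its lowest and highest groups of these regimens. The other extremes were 70.3, 76.3, 80.5 and 87.1 at ZT20 under DRF and 70.3, 79.8, 89.5 and 106 at ZT20 under NRF, where the regimens overlapped. Its rhythm-adjusted mean differed by -0.59 ± 0.06 (log2, limma adjusted p = 1.77e-09), or 0.665 of the NRF level, and its rhythm by a limma adjusted p of 9.99e-05, with a peak at 10.1 h ± 0.776 under NRF.

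Klkb1, plasma prekallikrein, lies 4.66 kb from F11 on the same strand of chromosome 8 and was phase-inverted. Klkb1 (ENSMUSG00000109764, chromosome 8, 45266689 to 45294859, - strand) had 242, 247, 251 and 259.6 scaled counts at ZT4 and 337, 359, 369 and 376 at ZT20 under DRF. Under NRF it had 249.6, 296, 307 and 307 at ZT20 and 385, 409.8, 460.2 and 472 at ZT12. The lowest and highest groups did not overlap in either regimen. Its peaks were at 17.8 h ± 0.467 and 8.99 h ± 0.508, 8.79 h ± 0.690 apart (limma adjusted p of the rhythm difference, 1.89e-10). Without ZT24 the shift of Klkb1 was 7.81 h, below the limit of the phase-inverted class. Exons of Gm45753 on the same strand cover 43.2% of the exon bases of Klkb1, and Gm45753 had a mean of 0.463 scaled counts.

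F5, factor V, the cofactor of factor X, was rhythmic under NRF alone and its rhythm differed (limma adjusted p = 7.15e-07). F5 (ENSMUSG00000026579, chromosome 1, 164151838 to 164220277, + strand) had 941, 1048, 1144 and 1253 scaled counts at ZT0 and 1225, 1561, 1615 and 1815 at ZT12 under NRF. Under DRF it had 1069.6, 1071, 1173 and 1196 at ZT4 and 1237, 1257, 1359 and 1367 at ZT24. The NRF groups overlapped by 1 library of each and the DRF groups did not, though these groups were picked as the lowest and highest of each regimen. Its NRF peak was at 12.5 h ± 0.576 with an amplitude of 0.24 ± 0.03, against 0.08 ± 0.03 under DRF (limma adjusted p = 0.141). F13b, the carrier subunit of the fibrin-linking factor XIII, was phase-locked with a shift of 3.66 h ± 0.995 and differed in rhythm (limma adjusted p = 0.00917), but not with the length trend removed (0.0670) or as deposited (0.513). F12 and Kng1, contact factors like Klkb1, passed no test of the rhythm difference, and Kng1 was lower under DRF (log2 difference -0.17 ± 0.05, limma adjusted p = 0.0359). This call of Kng1 was lost without ZT24 (limma adjusted p = 0.0794), as deposited (0.597), without both libraries of lowest replicate correlation (0.0687) and in 10 of the 56 fits that left out 1 library. Kng1 can share reads with its paralogue Kng2.

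The 3 fibrinogen genes, whose chains join into 1 protein, shared a pattern, with nearly opposite rhythms under DRF and NRF. They lie side by side on chromosome 3, Fga 11026 bp from Fgg and 6513 bp from Fgb, which faces the other way. The sequences around their starts are shown because these neighbours share a pattern, with F9 beside them as a member that kept its hour. They come from RefSeq (GRCm38.p6), run from 250 bases before to 50 after the start, and are in lower case, with capitals for any of 6 motifs searched on both strands: the E-box CACGTG, the nuclear receptor half-site AGGTCA, the C/EBP motif TTGCNNAA, the D-box TTATGNAA, the HNF1 half-site GTTAAT and the IL-6 element CTGGGAA.
Fga (chr3:83025903-83026202, + strand): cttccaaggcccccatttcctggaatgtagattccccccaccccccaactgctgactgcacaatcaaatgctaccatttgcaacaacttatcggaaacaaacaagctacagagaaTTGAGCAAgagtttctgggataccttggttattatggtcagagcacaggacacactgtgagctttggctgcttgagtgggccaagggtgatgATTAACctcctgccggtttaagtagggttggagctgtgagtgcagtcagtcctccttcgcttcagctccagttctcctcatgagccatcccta
Fgb (chr3:83049814-83050113, - strand): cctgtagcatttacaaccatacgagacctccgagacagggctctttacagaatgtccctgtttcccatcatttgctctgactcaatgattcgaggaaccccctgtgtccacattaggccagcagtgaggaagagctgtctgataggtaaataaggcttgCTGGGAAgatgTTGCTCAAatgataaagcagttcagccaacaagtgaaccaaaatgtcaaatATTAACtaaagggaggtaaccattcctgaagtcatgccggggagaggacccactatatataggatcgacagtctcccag
Fgg (chr3:83007474-83007773, + strand): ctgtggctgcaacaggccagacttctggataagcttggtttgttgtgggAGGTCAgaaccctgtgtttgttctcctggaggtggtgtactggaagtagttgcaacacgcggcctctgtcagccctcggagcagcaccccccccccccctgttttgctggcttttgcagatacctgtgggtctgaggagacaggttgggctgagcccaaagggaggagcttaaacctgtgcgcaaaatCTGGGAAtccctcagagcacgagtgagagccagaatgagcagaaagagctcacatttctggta
F9 (chrX:59999214-59999513, + strand): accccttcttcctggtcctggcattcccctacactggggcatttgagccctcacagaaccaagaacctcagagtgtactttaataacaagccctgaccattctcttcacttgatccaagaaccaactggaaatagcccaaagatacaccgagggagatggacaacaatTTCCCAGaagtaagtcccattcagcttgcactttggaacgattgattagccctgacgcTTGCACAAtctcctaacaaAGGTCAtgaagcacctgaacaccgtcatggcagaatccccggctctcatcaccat

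The sequences of Fga and Fgb each held 1 C/EBP motif and 1 HNF1 half-site, those of Fgb and Fgg each 1 IL-6 element, and that of Fgg 1 AGGTCA half-site. The sequence of F9 held 1 AGGTCA half-site, 1 C/EBP motif and 1 IL-6 element. RefSeq start sequences were matched for 31 of the 40 genes (33 sequences). Of these, 12 held AGGTCA, 11 the C/EBP motif, 10 the HNF1 half-site, 7 the IL-6 element, 3 the D-box and none the E-box. Over all 32851 sequences of this length the shares were 16.3% for AGGTCA, 10.8% for C/EBP, 7.10% for the HNF1 half-site, 11.1% for the IL-6 element, 3.38% for the D-box and 7.15% for the E-box. Such matches describe letters and not binding.

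Fgg, the gamma chain (ENSMUSG00000033860, chromosome 3, 83007724 to 83015049, + strand), had the smallest p of the rhythm difference among the 40 genes (4.15e-14, limma adjusted). It had 986, 986, 1105 and 1191 scaled counts at ZT4 and 1684, 1826, 1949 and 1950.1 at ZT16 under DRF. Under NRF it had 1887, 1979, 2207 and 2429 at ZT4 and 1128, 1261, 1335 and 1506 at ZT16. The order of ZT4 and ZT16 was turned between the regimens, with no overlap of these groups in either. The DRF peak was at 15.8 h ± 0.390 and the NRF peak at 5.14 h ± 0.410, 10.6 h ± 0.565 apart, and the peak-to-trough folds were 1.72 and 1.64.

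Fga, the alpha chain (ENSMUSG00000028001, chromosome 3, 83026076 to 83033627, + strand), had 1094, 1101, 1169 and 1343 scaled counts at ZT4 and 1507, 1889, 1974 and 2008 at ZT12 under DRF, and 1959, 1988, 2264 and 2573 at ZT4 and 1002, 1268, 1348 and 1533 at ZT16 under NRF. Fgb, the beta chain (ENSMUSG00000033831, chromosome 3, 83040141 to 83049863, - strand), had 951, 972, 1031 and 1190.0 at ZT4 and 1411, 1549, 1645 and 1664 at ZT20 under DRF, and 1619.8, 1691, 1823 and 2196 and 1081, 1133, 1230.3 and 1265 at these times under NRF. As in Fgg, ZT4 held the lowest DRF group and the highest NRF group of both genes. The shift was 10.6 h ± 0.638 for Fga and 10.9 h ± 0.680 for Fgb (limma adjusted p of the rhythm difference, 1.55e-12 and 3.21e-11). The rhythm differences of the fibrinogen genes passed with the values as deposited, but their NRF rhythms did not (limma adjusted p = 0.340 for Fga, 0.844 for Fgb and 0.541 for Fgg), so none of the 3 was then dual-oscillating or phase-inverted. At ZT4 the log2 difference, DRF minus NRF, was -0.90 ± 0.12 (SE) for Fga, -0.82 ± 0.11 for Fgb and -0.99 ± 0.10 for Fgg, and at ZT16 it was 0.52 ± 0.12, 0.34 ± 0.11 and 0.51 ± 0.10. Levels per kb were 544 scaled counts for Fga, 373 for Fgb and 769 for Fgg. Fga and Fgg were too deep for wholeness to be judged and were rebuilt with annotated lengths.

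**Figure D4:**
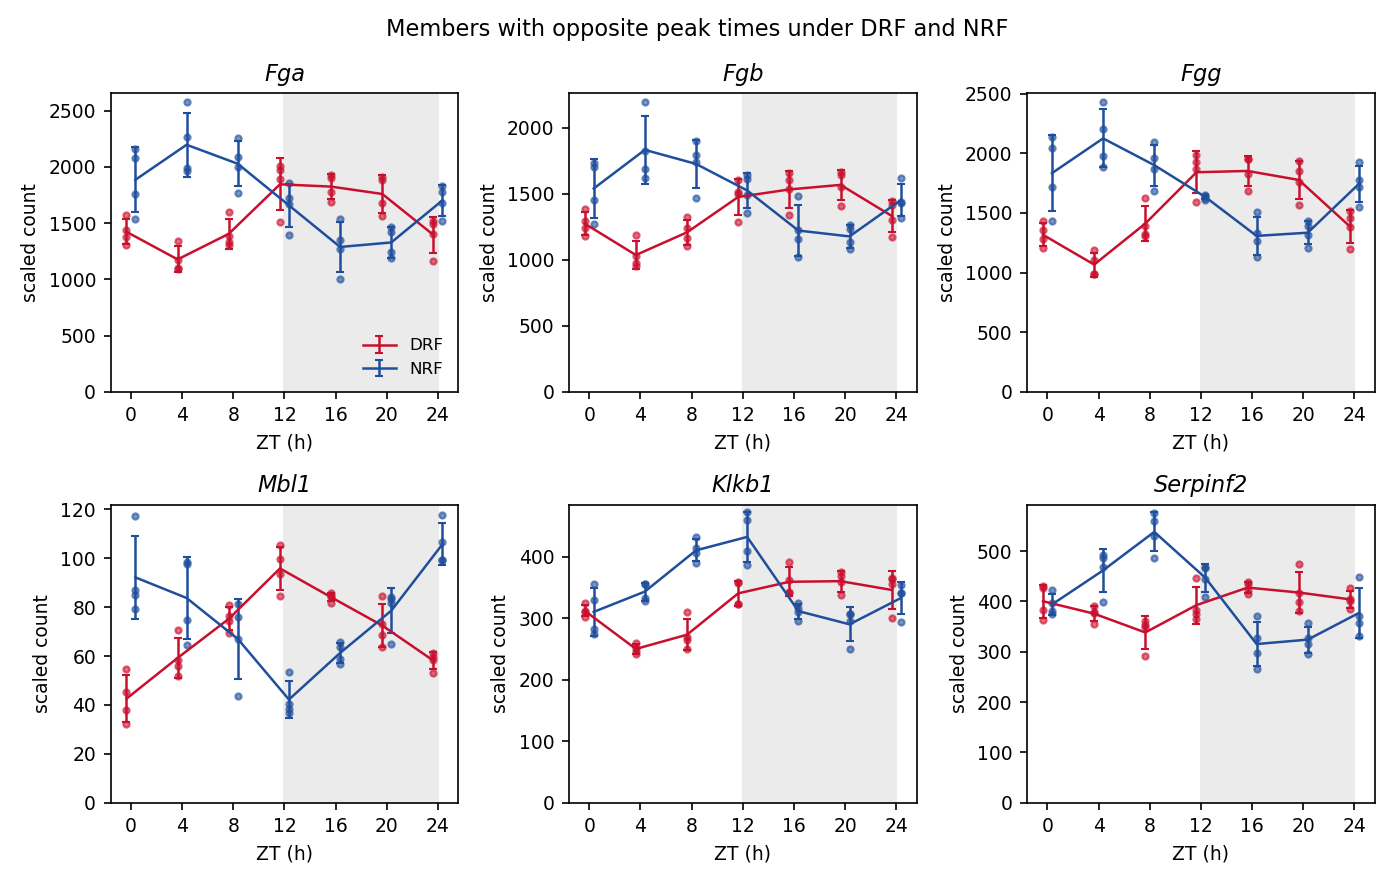
Scaled counts (y axis, from 0) against ZT in h for 6 of the 7 phase-inverted members. Points are single livers, lines join group means and bars are 1 SD (n = 4), with the dark phase in grey. In Fga, Fgb and Fgg the DRF line is lowest at ZT4, where the NRF line is highest, and in Mbl1 the DRF line is highest at ZT12, where the NRF line is lowest.

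Of the inhibitors and the fibrinolysis genes, Serpinf2, alpha-2-antiplasmin, which restrains plasmin, had the strongest NRF rhythm of the 40 genes by p. Serpinf2 (ENSMUSG00000038224, chromosome 11, 75431732 to 75439591, - strand) had 487, 531, 559 and 575 scaled counts at ZT8 and 266, 297, 328 and 370.5 at ZT16 under NRF. Under DRF it had 291, 349, 352 and 361 at ZT8 and 414, 423, 434 and 439 at ZT16. The order was turned, and the DRF range was the narrower one, with amplitudes of 0.15 ± 0.04 under DRF and 0.38 ± 0.04 under NRF. The peaks were 11.9 h ± 0.903 apart (limma adjusted p of the rhythm difference, 8.76e-12). The sum of its rhythms also differed from 0 (limma adjusted p = 8.46e-04), and as deposited its NRF rhythm did not pass (0.0690). Plg, plasminogen, was phase-inverted with a shift of 8.39 h ± 1.66, though its NRF rhythm passed narrowly (limma adjusted p = 0.0413) and did not pass in 14 of the 56 fits that left out 1 library, without ZT0 (0.0868), without ZT24 (0.130) or with median-of-ratios scaling (0.0626). As deposited Plg was phase-locked, with a shift of 1.70 h, and its rhythm difference did not pass (limma adjusted p = 0.344). Exons of Slc22a3 lie opposite 11.3% of its exon bases.

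Cpb2, a carboxypeptidase that protects fibrin from plasmin, peaked at 15.9 h ± 0.655 and 19.8 h ± 0.818 and was phase-locked, but not in 11 of the 56 fits that left out 1 library, and its rhythm difference (limma adjusted p = 0.00582) did not pass without ZT0 (0.0638) or as deposited (0.659). Serpinc1, antithrombin, and Serpind1, heparin cofactor II, were rhythmic under DRF alone, with peaks at 15.0 h ± 0.870 and 14.6 h ± 0.948. The rhythm difference passed for Serpind1 (limma adjusted p = 0.0316, not without ZT0, without ZT24 or as deposited) and not for Serpinc1 (limma adjusted p = 0.0541). None of the 5 genes in this group had a different mean.

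**Figure D5:**
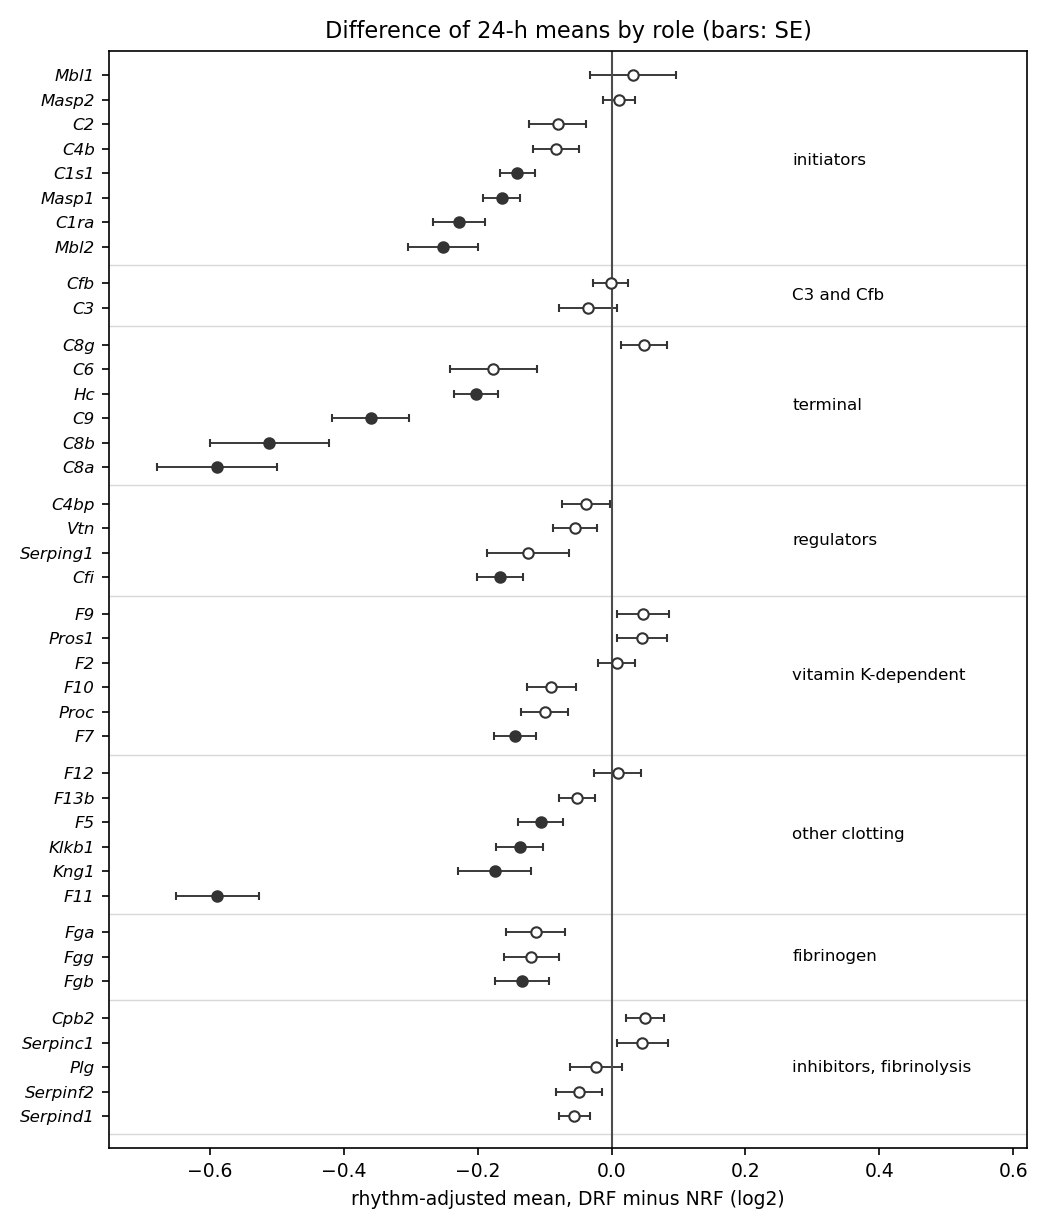
Rhythm-adjusted mean under DRF minus NRF (x axis, log2) for the 40 genes by role, with bars of 1 SE. Filled points passed a limma adjusted p of 0.05. The 15 filled points lie left of 0, with C8a, F11, C8b and C9 farthest.

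At single times, the regimens were compared directly in a model of the 14 groups. At ZT0, 10 members differed (16.2% of all genes), 9 lower under DRF (8.13%) and 1, Pros1, higher (8.07%). At ZT4, 9 differed (20.7%), 8 lower (9.66%) and 1, again Pros1, higher (11.1%). At ZT8, 15 differed (13.2%), all lower under DRF (7.38%) and none higher (5.85%). This was the time with the highest count, and C1ra, C1s1, C4b, Hc, C8a, C8b, Cfi, Vtn, F11, F13b, Klkb1, Serpinf2 and the fibrinogen genes made up the 15. At ZT12, 13 differed (15.5%), 11 lower (8.29%) and 2, Mbl1 and Cpb2, higher (7.23%).

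At ZT16 and ZT20 most of the members that differed were higher under DRF. Over all 40 members the median log2 difference was 0.0174 at ZT16 and -0.0086 at ZT20, so the set as a whole did not turn. At ZT16, 10 members differed (15.5%), of which 8 were higher under DRF (8.93%) and 2 lower (6.55%). At ZT20, 7 differed (14%), 5 higher (7.86%) and 2 lower (6.17%). The higher members at ZT20 were Klkb1, Fga, Fgb, Fgg and Serpinf2, all phase-inverted. At ZT24, 8 differed (14.3%), all lower under DRF (7.03%) and none higher (7.24%). All 8 were also lower at ZT0, and ZT0 and ZT24 are the same hour in different animals. By limma none of the 40 members was higher under DRF at ZT8 or at ZT24. The count at ZT0 fell to 6 without DRF ZT0 replicate 3 and to 5 without NRF ZT0 replicate 1, that at ZT12 to 8 without DRF ZT12 replicate 4, and that at ZT16 to 6 without DRF ZT16 replicate 2 or without NRF ZT16 replicate 3. With the values as deposited, between 1 and 6 members differed at each time.

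Between ZT0 and ZT24 of the same regimen, 1 member differed under DRF (F9, against 3.17% of all genes) and 3 under NRF (Hc, F9 and F12, against 8.08%). A 12-h component added to the 24-h fit passed in no member by limma under DRF (4.84% of all genes) or under NRF (2.07%), with 5 and 7 members at an unadjusted p under 0.05. Between ZT0 and ZT24, the counts under DRF and NRF were 11 and 35 with the values as deposited and 6 and 5 with the length trend removed, and leaving out DRF ZT0 replicate 3 or NRF ZT0 replicate 2 left none under DRF or NRF, respectively.

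The other genes of the pathways, 24 of complement and 27 of coagulation that include receptors, cell-bound regulators and factors made outside hepatocytes, had a median level of 5.37 scaled counts per kb. Their rhythm differed in 20 of 51, 5 of complement and 15 of coagulation, close to the background above. Their mean was lower under DRF in 2 (2.76% of all genes) and higher in 2 (4.23%). Proz, protein Z, was lower under DRF, with a log2 difference of -0.11 ± 0.03 (limma adjusted p = 0.0253). Vwf, made by endothelium, and Hrg, a liver protein that binds plasminogen, were higher under DRF, by 0.18 ± 0.04 and 0.16 ± 0.04 (limma adjusted p = 0.00102 and 0.00374). Among 14 dual-oscillating genes of the list, 6 were phase-inverted (50.8% of all dual-oscillating genes), 4 phase-locked (24.6%) and 4 between (24.7%).

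Markers of other conditions and cells were read in the same libraries. Of 16 acute-phase genes, 7 differed in rhythm, 4 were lower under DRF in their mean (Apcs, Itih3, Itih4 and Hpx) and 1 was higher (Orm2). Over all genes 39.1% differed in rhythm, 2.76% had a lower mean under DRF and 4.23% a higher one. Their summed level ran from 4958 to 8043 scaled counts in DRF libraries and from 4838 to 6852 in NRF libraries. Saa1, the classic serum amyloid, had a log2 mean difference of -0.34 ± 0.14 (limma adjusted p = 0.125). Of 8 hepatocyte markers, 1 was lower under DRF (Apoa1) and 1 higher (Cps1). None of the 6 endothelial, 6 Kupffer cell, 6 stellate cell, 5 bile duct, 4 platelet, 4 neutrophil or 5 lymphocyte markers had a different mean by limma (6.99% of all genes). The part of any of these lists in the members' differences was not tested.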

How the data were processed

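By the extract protocol, liver RNA of 56 mice was depleted of ribosomal RNA and sequenced as stranded 150 bp read pairs. The molecule field of the sample records names polyA RNA instead, and the protocol was followed here. The submitters' processing notes name CASAVA 1.8, featureCounts 1.5.0-p3 and the builds mm10 and GRCm38.p6, while the aligner, and whether counting used strand, are not given in the sources used here. The deposited table gives values named TPM per gene and library, but the authors' values behaved as a score and not as linear TPM. Multiplied by exon length (GENCODE M21), each equalled a library factor times the natural log of 1 plus a scaled count, and that scaled count was a whole number times a constant of the library. Solving for it gave whole numbers within 0.05 for 99.97% of held-out values up to 100 and for 97.48% between 60000 and 200000. Between 200000 and 400000 the share was 63.88% within 0.05 and 98.44% within 0.2. Above 60000 a gene was judged with the wider tolerance of 0.2. These whole numbers are not read counts: per scaled count there were 304 to 723 of them. The read depth of each library can therefore not be taken from them. The study reports depth as an average and a minimum over its samples. Precision was taken from the spread between animals. Of the 40 genes, 28 were whole at their annotated length, and 6 (C3, Plg, Kng1, Fga, Fgg and Cfi) were too deep to judge. Among the others, the lengths of Mbl2 (1101, against 1089 annotated) and Hc were found by search, as the length that gave most whole values. Deposited tables of transcripts and circular RNAs were not used. The values of 1 gene of the wider pathway list are not reported here. Fold changes here are on the log2(scaled count + 1) scale.

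limma 3.58.1 (R 4.3.3, trended variances) was fitted to log2(scaled count + 1) of 24822 genes in all 56 libraries, with a mean and a 24-h cosine per regimen, or with the 14 group means for single times. p-values were adjusted by Benjamini-Hochberg over all genes. The rhythm-adjusted mean is the mean term of the cosine fit, and errors of phase and amplitude came from the delta method. Tested on simulated data, the model recovered most planted changes, and fewer of the smaller ones. The study's rhythm tools were not available, so this model was used in their place. The rule for the 40 genes uses no measured value, but the genes and lists were proposed with earlier results of these data known. Members described with values per library in the highest and lowest groups were chosen by p. They were those with the smallest p of the rhythm difference (8), of the mean (4), of each rhythm and of the departure from inversion (1 each). The 2 members with the largest p of rhythm, taking the larger p of both regimens, were added. In each role group the member with the smallest p of the rhythm difference was named. Highest and lowest groups were picked from the same values, so a lack of overlap between them is no test. C3 was described with values per library after its values were seen.

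Replicate numbers did not pair animals: the deviations of libraries with the same number had a mean correlation of 0.004 (from -0.41 to 0.306), against -0.00131 for other numbers. No 2 libraries were duplicates. The labels name separate animals and no batch or date. Alternatives were the values as deposited, pseudocounts of 0.1 and 10, median-of-ratios scaling, a minimum mean of 1, removal of the length trend, robust variances, a replicate block, leaving out ZT0, ZT24 or each library, and rank tests. The values as deposited entered as log2(deposited value + 1), a second log of values that are already log-transformed. Leaving out both libraries with the lowest replicate correlation was added after seeing the data.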

Additional observations from a re-analysis of the deposited data

Results flagged for a closer look

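The 24-h rhythm differed between DRF and NRF in 23 of the 40 genes by the limma test of that difference, as described above. Among 560 groups of 4 livers, 22 values lay farther from the rest of their group than Dixon's 95% limit, and chance alone gives about 1 group in 20. Of these, 15 were NRF and 7 DRF values, from 14 libraries.

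Replicate 3 of NRF at ZT16, the library with the lowest replicate correlation, held 4 of them: high values of C8b (603), C9 (876) and F5 (1780) and a low one of F9 (355 scaled counts). The members' counts without it are given above and below. Replicate 4 of NRF at ZT4 was low in F9 (279) and F13b (301), replicate 4 of NRF at ZT24 in F7 (89.0) and Vtn (368), and replicate 3 of NRF at ZT8 in C1ra (156) and C8a (514). Replicate 4 of NRF at ZT0 was high in Kng1 (2620) and Plg (4240). C6 was high in NRF ZT12 replicate 1 (25.2) and low in NRF ZT4 replicate 1 (11.9), and Mbl1 was low in NRF ZT20 replicate 1 (64.9).

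Under DRF, replicate 3 of ZT8 was low in Mbl2 (263) and Serpinf2 (291). Single values stood apart for C8g at ZT0 (50.2, replicate 2), C4b at ZT12 (716, replicate 2), F10 at ZT16 (426, replicate 4), Serping1 at ZT20 (351, replicate 2) and Klkb1 at ZT24 (300, replicate 2).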

How the results depend on the processing

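With the values as deposited, 26 members were rhythmic in both regimens, 10 had a different rhythm and 5 a different mean, all 5 lower under DRF. The median shift was 1.26 h, 1 member was phase-inverted and 24 were phase-locked. From ZT0 to ZT24 in order, 3, 4, 6, 2, 1, 1 and 4 members differed between regimens, and between ZT0 and ZT24 they were 11 under DRF and 35 under NRF. C4b lost its rhythm difference (limma adjusted p = 0.127), and Hc both calls. By construction these values hold a factor per library and compress high levels, and the fit took log2(value + 1) of them on top. No share over all genes was computed with them. Between ZT0 and ZT24 the DRF count was 2 with a minimum mean of 1, 2 without both libraries of lowest correlation and 6 with the length trend removed, where the NRF count was 5. The 12-h count under DRF was 1 with median-of-ratios scaling, 1 with the replicate block and 2 without ZT0, where that under NRF was 1. With the exact rank test the median shift was 7.39 h. Without both libraries of lowest correlation the phase shift of members rhythmic in both regimens had a median of 4.65 h, and 9 members were phase-locked. The causes were not tested. The replicate block changed no other count by over 1.5 times (23 different rhythms, 14 lower means).

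Leaving out each library in turn gave 23 to 27 members rhythmic under DRF, 22 to 29 under NRF, 13 to 21 in both, 22 to 27 with a different rhythm, 22 to 29 other than inverted and 12 to 18 with a lower mean. The median shift ran from 4.74 to 8.70 h, phase-inverted members from 6 to 8 and phase-locked ones from 3 to 8. From ZT0 to ZT24 in order, counts of differing members ran from 5 to 11, 7 to 10, 10 to 17, 8 to 14, 6 to 14, 6 to 8 and 6 to 10. Between ZT0 and ZT24 they ran from 0 (without DRF ZT0 replicate 3) to 3 (without NRF ZT16 replicate 1) under DRF and from 0 (without NRF ZT0 replicate 2 or 4, and 1 without NRF ZT24 replicate 1 or 2) to 4 under NRF, and 12-h counts from 0 to 1 in each regimen. Other pathway genes with a different rhythm numbered 19 to 21. C1ra gained a rhythm difference without NRF ZT16 replicate 1 (limma adjusted p = 0.0114). The lower DRF means of F11, C8a, C9 and Hc kept their sign in every alternative. The deposited values do not give the read depth of each library, so no counting error was computed for low genes such as C6.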
